A study of Drosophila melanogaster with 3 samples.

Results

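Neural and glial regulators are genes whose products set up the fly nervous system, from the neuroectoderm through dividing neuroblasts to neurons and glia. The 10 genes described here were taken as a list by name: SoxN and D, wor, dpn and ase, pros, nerfin-1 and scrt, elav, and repo. They are 10 of 13945 protein-coding genes of the annotation. The rule is a list of names with no threshold on a measured value, but the list was proposed with results of these data known. Binding was measured by chromatin immunoprecipitation and sequencing (ChIP-seq) in whole Drosophila melanogaster embryos of pooled sex, 0 to 24 h old, from a transgenic line that makes eyegone (eyg) with green fluorescent protein (GFP) at its C-terminus. All 3 biological replicates come from that line and were precipitated with an antibody against GFP. There is no second genotype, tissue or time, and whole embryos mix all cell types, so binding in a few neural cells and weak binding in many cells cannot be told apart. Every gene below was scored in the regions called in each replicate, in the regions called on the pool of the replicates, and in the optimal list that the authors derived from them by the irreproducible discovery rate (IDR).

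In the embryo, SoxB proteins mark the neuroectoderm, and proneural and Snail-family factors act in the neuroblasts that leave it. Prospero passes to the daughter cell that does not self-renew. Neurons then make the RNA-binding protein Elav, and most glia make the homeodomain protein Repo. The tagged factor eyg is a Pax-family protein that flies need to form the eye and the salivary ducts.

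At the optimal threshold, elav was the one member with a site at its promoter, and it had a pair of them. A site means a summit of the optimal list within 1 kb of an annotated transcription start site (TSS). Of the members, 1 of 10 had a site, against 14.7% of all protein-coding genes. With at least 2 sites the count was again 1 of 10, against 1.58%. Counting summits anywhere in the gene body or in 10 kb on either side, pros joined elav, giving 2 of 10 members against 46.9%, and elav alone had 2 or more, 1 of 10 against 20.5%. The members' share with a promoter site lay near that of all genes. The order of the wider shares turned with the flank, since inside the gene body alone the count was again 2 of 10 members, against 8.43% of all genes. No p-value was formed for any count, since there is 1 group and the list was chosen in that way.

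**Figure D1:**
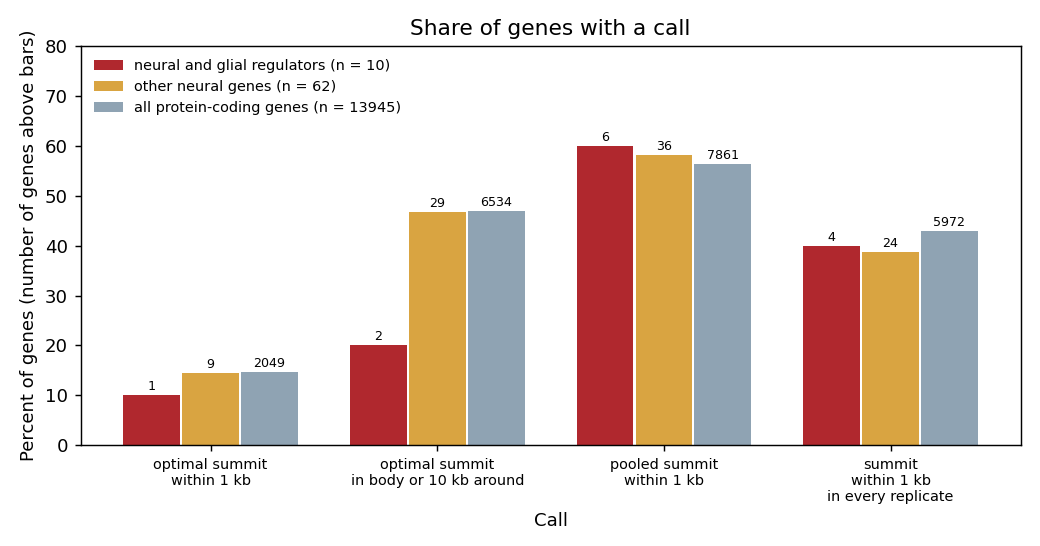
Percent of genes with a call, by 4 ways of counting, for the 10 neural and glial regulators (red), 62 other neural genes (yellow) and all 13945 protein-coding genes (grey), with the number of genes above each bar. The widest gap is in the count of optimal summits in the gene body or 10 kb around, with 2 of 10 regulators, 29 of 62 other neural genes and 6534 of all genes.

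Counts in the full pooled and replicate lists, which include elav with its optimal sites, gave shares similar to those of all genes. Pooled summits within 1 kb of a TSS were present for 6 of 10 members (SoxN, D, pros, nerfin-1, scrt and elav), against 56.4% of all genes. In replicate 1 it was 5 of 10 against 61.0%, in replicate 2 it was 6 of 10 against 61.8%, and in replicate 3 it was 7 of 10 against 56.5%. Members with such a call in every replicate were SoxN, pros, scrt and elav, 4 of 10 against 42.8%. Members with none in any replicate were wor, dpn and ase, 3 of 10 against 23.3%. By design, regions of background stand in the replicate and pooled lists together with peaks, and of 23721 pooled regions 2860 reached a −log10 q of 2, so a call in these lists is a candidate and not a site. At the 1 kb limit, the outermost summit inside was one of elav at 965 bp with a pooled signal of 68.6, and the nearest outside were those of D at 1106 bp (40.5) and nerfin-1 at 1123 bp (41.1).

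**Figure D2:**
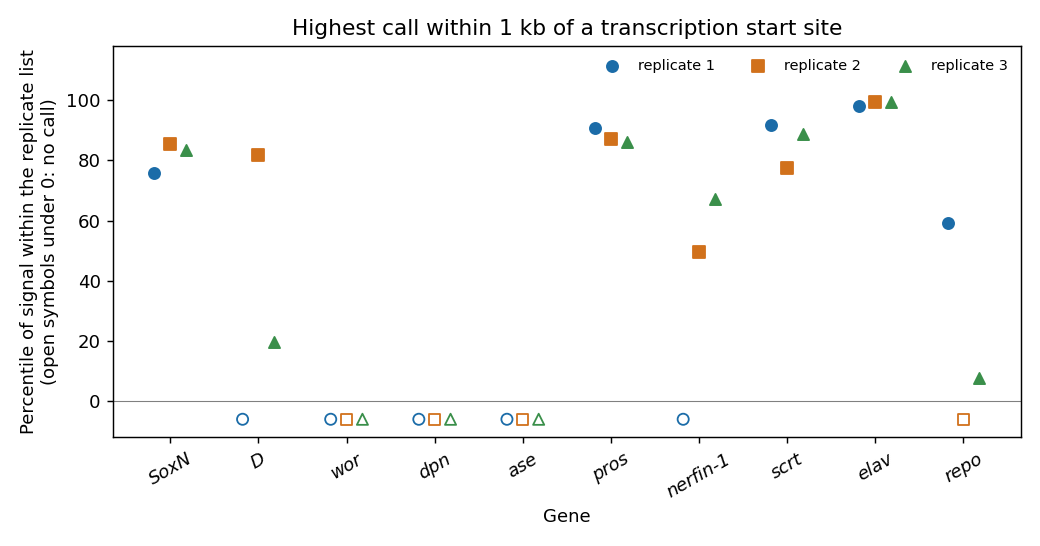
Highest call within 1 kb of a TSS for each gene in replicates 1 (circles), 2 (squares) and 3 (triangles), as the percentile of its signal within that replicate's list. Open symbols below 0 mark genes with no call in that list. The 3 elav points lie between 98.1 and 99.4, and wor, dpn and ase have no call in any replicate.

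The order of promoter signal was elav, then pros, scrt and SoxN. The signal of a region is the authors' own value, and because its scale is not stated, levels were ranked within each list. The mean percentile of the highest call within 1 kb was 98.9 ± 0.742 for elav, 87.9 ± 2.42 for pros, 86.0 ± 7.58 for scrt and 81.5 ± 5.22 for SoxN (SD, n = 3). In each replicate elav lay above the other 3, while neighbours among pros, scrt and SoxN differed by less than the larger of their SDs. The order of those 3 changed between replicates, with scrt highest of them in replicates 1 and 3 and pros in replicate 2.

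The elav gene (FBgn0260400, chrX:509235-523226 on dm6, minus strand) encodes an RNA-binding protein of neuronal nuclei that is used as the general marker of neurons. It lies almost wholly inside arg, which is transcribed from the opposite strand, and shares its TSS with the non-coding lncRNA:enrr. The upstream site, at chrX:523431-523564, had its summit 242 bp before the TSS, in an intron of arg. The downstream site, at chrX:522424-522847, had its summit 590 bp past the TSS, in an intron of elav that is also intron of arg and lncRNA:enrr. The summits lay 832 bp apart, and 9.54% of optimal summits genome-wide have another one at that distance or less. Of the 2 regions the upstream one was the narrower, 134 bp against the 424 bp of a full-width region.

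The sequences around both summits are shown because they carry the strongest signal at any member. Each is 201 bases of the RefSeq copy of dm6 centred on the summit and written 5′ to 3′ on the elav strand. Capitals mark the only match to 7 short motifs searched on both strands, a Sox-type AACAAT (the reverse complement of ATTGTT) in the downstream window.
elav upstream, chrX:523368-523568, minus strand: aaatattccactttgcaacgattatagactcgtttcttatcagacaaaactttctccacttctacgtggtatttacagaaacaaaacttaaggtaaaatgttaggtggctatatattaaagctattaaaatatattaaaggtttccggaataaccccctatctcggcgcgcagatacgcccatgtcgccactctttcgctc
elav downstream, chrX:522536-522736, minus strand: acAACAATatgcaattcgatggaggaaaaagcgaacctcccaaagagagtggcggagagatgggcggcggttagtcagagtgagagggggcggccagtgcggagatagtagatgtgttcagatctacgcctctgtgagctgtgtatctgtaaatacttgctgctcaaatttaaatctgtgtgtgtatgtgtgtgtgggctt

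Both elav sites were found in every replicate at nearly the same position. The upstream site had signals of 63.6, 134.4 and 147.8 in replicates 1, 2 and 3, which ranked 586, 178 and 187 in their lists. The downstream site had 60.1, 107.5 and 118.9, with ranks 666, 307 and 311. The upstream site was the higher in 3 of 3 replicates, and replicate 1 was the lowest for both. Replicate means were 115.3 ± 45.2 upstream and 95.5 ± 31.2 downstream (SD, n = 3). Both sites were read in the same replicates, so these SDs do not measure the spread of the difference between them. Replicate summits lay within 38 bp of each other upstream and within 19 bp downstream.

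In the pool the upstream site had a signal of 335.6 (rank 242 of 23721) and the downstream one 285.4 (rank 371). Both had a −log10 q of 3.37, the highest in that list, which 1174 regions share. By the highest pooled signal within 1 kb of a TSS, elav ranked 237 among protein-coding genes, with 1.69% of genes above it. The site at the promoter of eyg itself, given for comparison and not as a control, had signals of 63.6, 58.4 and 52.4 in replicates 1, 2 and 3 and 177.0 in the pool. The elav upstream site was about level with it in replicate 1 and above it in replicates 2 and 3.

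The rest of the elav locus held weaker candidates. A second TSS of elav, 2941 bp inside the gene, had a pooled summit 62 bp away with a signal of 68.9, called in replicates 1 and 3 (18.9 and 30.8) and not in replicate 2. In the coding exon a summit 5205 bp from the first TSS had 84.2 in the pool and 27.1, 31.9 and 23.5 in the replicates. In the 3′ UTR, which is long in neurons, 3 pooled summits had signals of 81.6, 46.5 and 62.0. All of these lay below 108.3, the lowest signal of the optimal list. The remaining optimal summit in the elav window (chrX:499584-500007, pooled signal 188.7) lay 9439 bp beyond the 3′ end of elav and 162 bp from a TSS of svr, a carboxypeptidase gene. It had replicate signals of 42.6, 73.9 and 73.3 (mean 63.2 ± 17.9, SD, n = 3).

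**Figure D3:**
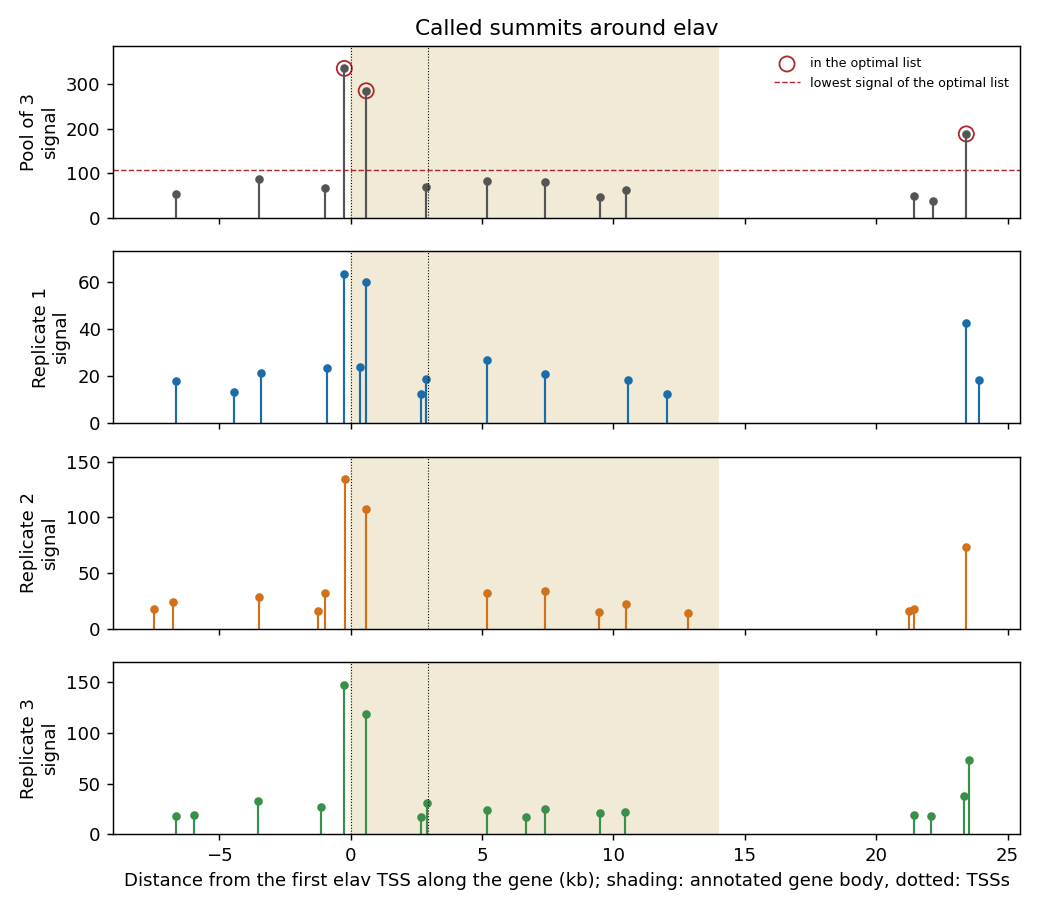
Signal of every summit called in the pool and in replicates 1, 2 and 3 (panels, each on its own scale) against distance from the first elav TSS in kb. Shading marks the annotated elav gene, dotted lines its TSSs and red rings the optimal list. The pair of summits around the TSS, at 335.6 and 285.4 in the pool, stands above the rest in every panel.

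The prospero gene (pros, FBgn0004595, chr3R:11328480-11407627, plus strand) encodes a homeodomain protein that is shared out to one daughter of the neuroblast and ends its self-renewal. It is the longest member, 79148 bp with 4 annotated TSSs. Its optimal summit was far from all of them, 20210 bp from the nearest and 64518 bp from the first, in a 3′ UTR of pros at chr3R:11392786-11393209. Of any protein-coding gene, the closest TSS to this summit was that of mRpL40, 14920 bp away. Few optimal summits lie in a 3′ UTR, 33 of 2537 or 1.30%. Signals were 54.9, 53.0 and 51.3 in replicates 1, 2 and 3 (mean 53.1 ± 1.79, SD, n = 3), with ranks of 818, 1492 and 1764, and 163.1 in the pool (rank 1172). The SD of the raw signal was smaller here than at the elav promoter pair. That of the within-list percentile was larger, 2.22 against 0.742 at the upstream and 0.633 at the downstream elav site. Replicate summits of the pros site lay within 16 bp of each other.

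At the promoters of pros, binding stayed below the threshold. The TSS 44308 bp inside the gene had a pooled summit 48 bp before it, in a coding exon of a longer transcript, with a signal of 97.2 (rank 3161). It was called in every replicate, at 32.2, 33.0 and 35.6 (mean 33.6 ± 1.75, SD, n = 3). No pooled summit lay within 1 kb of the other 3 TSSs. Just past the 3′ end of pros a summit at chr3R:11409686-11410109 had a pooled signal of 108.1, rank 2550, directly under the optimal threshold of 108.3. It lay 23 bp from the TSS of mgr, a prefoldin subunit gene, and had 35.8, 39.1 and 32.0 in the replicates.

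**Figure D4:**
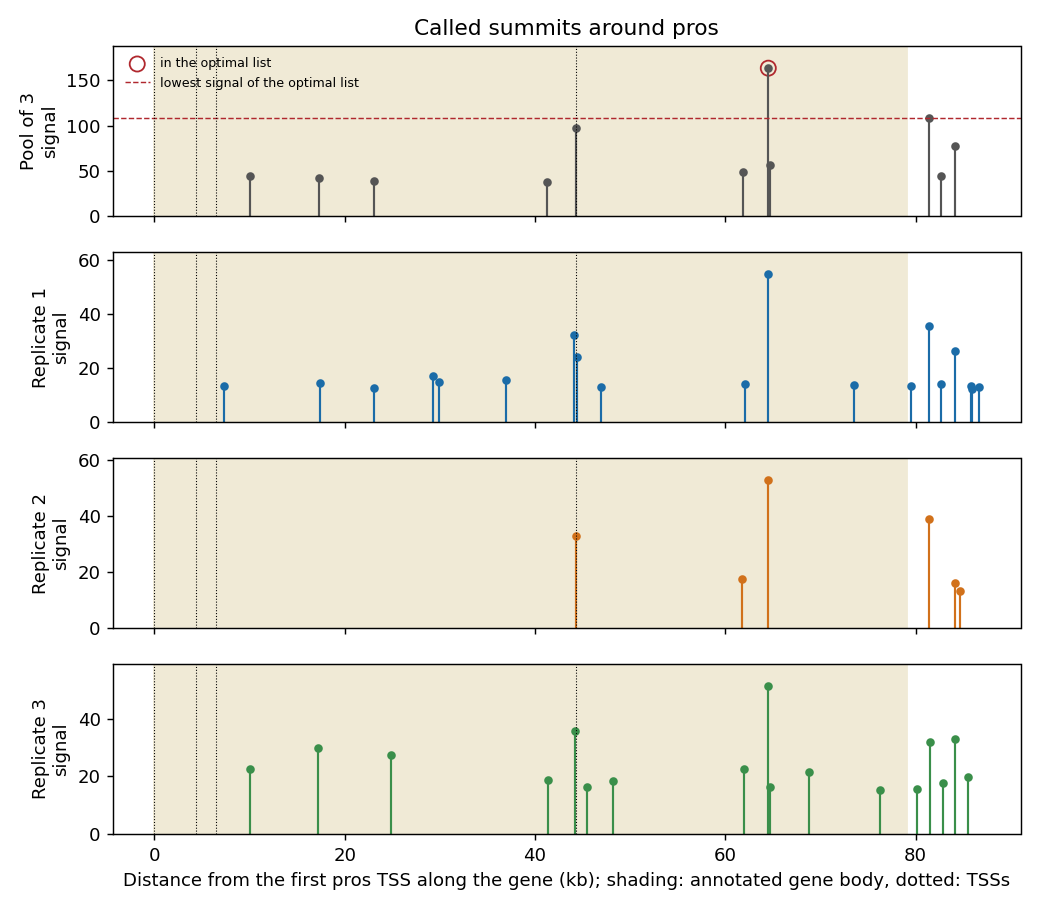
Signal of every summit called in the pool and in replicates 1, 2 and 3 (panels, each on its own scale) against distance from the first pros TSS in kb. Shading marks the annotated pros gene, dotted lines its 4 TSSs and the red ring the optimal summit. That summit, at 163.1 in the pool and 54.9, 53.0 and 51.3 in the replicates, is the highest in each panel.

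Scratch (scrt, FBgn0004880, chr3L:3983896-3994003, plus strand) encodes a Snail-family zinc finger protein made throughout the early nervous system, and by pooled signal it had the strongest promoter candidate after elav. The summit at chr3L:3983434-3983857 lay 250 bp before the TSS, with a pooled signal of 101.0 (rank 2911). Replicates 1, 2 and 3 gave 34.2, 25.8 and 39.9 (mean 33.3 ± 7.10, SD, n = 3), at ranks 2451, 6760 and 2751, and replicate 2 was the lowest. The next summits of the window reached at most 62.2 in the pool. By its pooled promoter signal 16.4% of protein-coding genes lay above scrt, 17.4% above pros and 19.8% above SoxN.

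SoxneuRo (SoxN, FBgn0029123, chr2L:8825645-8829670, plus strand) and Dichaete (D, FBgn0000411, chr3L:14175610-14178620, minus strand) encode the SoxB proteins of the neuroectoderm. The SoxN summit at chr2L:8825415-8825838 lay 18 bp before the TSS and had 89.0 in the pool (rank 3725). Its replicate signals were 22.4, 31.5 and 32.5 (mean 28.8 ± 5.52, SD, n = 3), with replicate 1 the lowest. A higher SoxN summit, at chr2L:8834834-8835257 and 5376 bp past the gene's 3′ end, had 106.1 in the pool, again just under the threshold. The replicates differed there, with 34.0 and 51.7 in replicates 1 and 3 and 17.7 in replicate 2. Summits of 59.3 and 71.4 lay in the SoxN coding exon.

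The D promoter was near the middle of the pooled list. Its summit, 388 bp before a TSS and in the 5′ UTR of the longer transcript, had 53.8, where the list's median was 51.4. A replicate call held that summit in replicate 2, at 28.3, and in replicate 3, at 14.4, and none did in replicate 1. The highest D summits were past the 3′ end, at 1228 and 2917 bp beyond it, with 79.4 and 74.4 in the pool. Replicate means there were 26.3 ± 2.06 and 25.1 ± 4.97 (SD, n = 3).

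The windows at the promoter candidates of scrt, SoxN and pros are shown beside those of elav because these 3 genes were called there in every replicate but not in the optimal list. They were taken in the same way and written on the gene's own strand. Bases that fall in a UTR are left out, which shortens SoxN and pros.
scrt, chr3L:3983546-3983746, plus strand: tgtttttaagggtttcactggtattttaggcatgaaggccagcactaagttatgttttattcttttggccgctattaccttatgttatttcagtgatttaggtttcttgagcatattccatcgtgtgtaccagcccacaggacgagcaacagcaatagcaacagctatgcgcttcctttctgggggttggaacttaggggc
SoxN, chr2L:8825527-8825644, plus strand: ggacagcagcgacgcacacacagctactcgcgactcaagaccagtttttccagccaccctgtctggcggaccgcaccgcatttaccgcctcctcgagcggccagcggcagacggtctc
pros, chr3R:11372640-11372787, plus strand: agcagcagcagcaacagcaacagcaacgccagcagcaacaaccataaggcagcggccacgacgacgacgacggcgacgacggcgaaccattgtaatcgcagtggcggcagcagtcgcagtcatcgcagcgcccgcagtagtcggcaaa

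None of the 7 motifs was found in these 3 windows of 201 bases. The motifs were TAATTA (the homeodomain core), ATCGAT (the core of the Dref element), CAGCTG (an E box), CAGGTG (a Snail-type E box), CAGGTAG (Zelda), GAGAGAG (the GAGA element) and ATTGTT (Sox-type), and none contains another. In windows of the same length around all optimal summits their shares were 13.7%, 11.1%, 11.0%, 6.35%, 0.867%, 5.12% and 22.7% in that order. Among the 4 optimal summits in the members' windows, ATTGTT was in 1 (elav downstream) and GAGAGAG in 1 (the pros 3′ UTR). The members' windows differed in base composition. GC content was 63.7% at SoxN and 60.2% at the pros promoter, where the median of all pooled windows was 42.8%, and 43.3% at scrt. At elav it was 37.8% upstream and 48.8% downstream, where the median of optimal windows was 37.8%.

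The 3 neuroblast genes had no promoter call in any list. Worniu (wor, FBgn0001983, chr2L:15423297-15425580) is a Snail-family factor, Deadpan (dpn, FBgn0010109, chr2R:8228971-8232330) a bHLH repressor that keeps neuroblasts dividing, and Asense (ase, FBgn0000137, chrX:460747-463176) a proneural bHLH factor. Pooled summits in their windows numbered 4, 7 and 2, and the highest had signals of 57.8, 72.3 and 46.6. The highest wor summit lay 1982 bp from the TSS of CG44869, and its highest replicate calls anywhere in the window were 18.4, 25.1 and 24.1 in replicates 1, 2 and 3. For dpn the highest was in an exon of lncRNA:CR44276, 9389 bp upstream, with 29.2, 19.7 and 22.1. A further dpn summit with 69.2 lay 77 bp from the TSS of pnut, a septin gene, and was called in replicates 2 and 3 (24.3 and 44.9) only. For ase the highest was 3237 bp past its TSS, and the highest call of the window in each replicate was 15.4, 17.5 and 16.2. These ase calls ranked 19291, 16427 and 18745 in their lists, below the medians of 17.1, 18.3 and 19.6. The lists stop at signals of 12.4, 12.9 and 14.2 in replicates 1, 2 and 3, and weaker binding would not appear in the files.

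Nervous fingers 1 (nerfin-1, FBgn0028999, chr3L:909112-912319) encodes a zinc finger protein of newly formed neurons. Its promoter summit, 521 bp before the TSS, had 51.4 in the pool, and calls held it in replicates 2 (18.2) and 3 (23.5) and not in replicate 1. The highest summit of its window, 68.4, lay 4579 bp upstream and 1635 bp from the TSS of mat. Replicate signals there were 18.2, 23.2 and 23.1.

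The glial gene repo (FBgn0011701, chr3R:18236192-18239602, plus strand) had no pooled summit within 1 kb of its TSS. Replicate 1 had a call 168 bp away with a signal of 18.5, replicate 3 one at 984 bp with 14.8, and replicate 2 none. Inside the gene a summit in the coding exon, 2310 bp past the TSS at chr3R:18238290-18238713, was called in every replicate. Its signals were 28.2, 29.5 and 28.7 in replicates 1, 2 and 3 (mean 28.8 ± 0.679, SD, n = 3) and 86.8 in the pool. The within-list ranks were less even, 3925, 4995 and 5182, with a mean percentile of 83.1 ± 3.99. The 2 highest summits of the repo window, 103.0 and 96.2 in the pool, were in introns of 14-3-3epsilon, a signalling adaptor gene downstream of repo. With 12 pooled summits in 23411 bp, repo had the densest window of the members, 51.3 per 100 kb. Most of these summits lay closer to the TSS of another protein-coding gene than to that of repo.

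**Figure D5:**
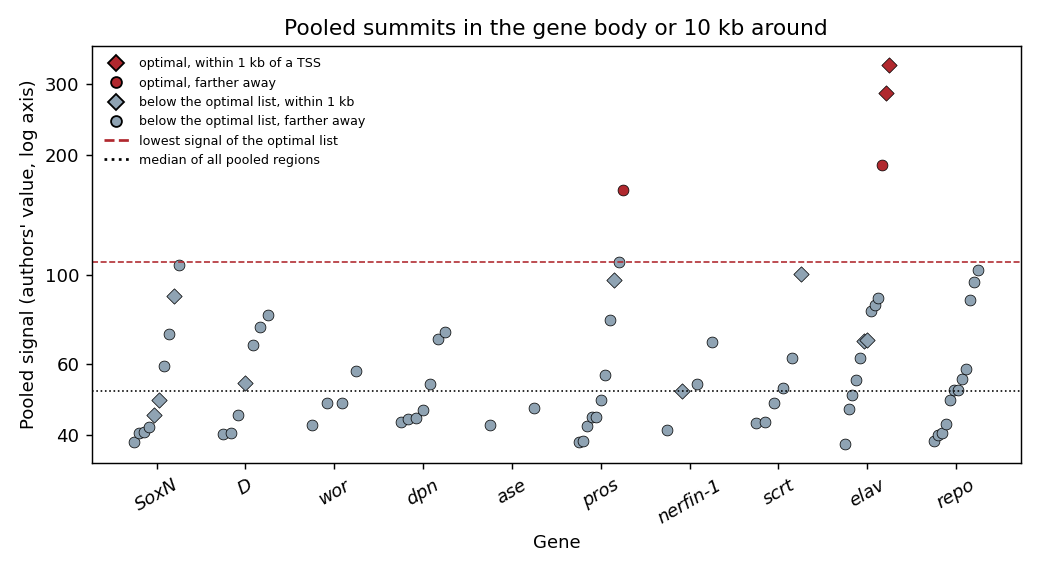
Pooled signal, on a log axis, of each of the 76 pooled summits in the gene body or 10 kb around, by gene. Red marks the optimal list and diamonds a summit within 1 kb of a TSS, and points are spread sideways by rank. The 4 optimal summits are those of elav (335.6, 285.4 and 188.7) and pros (163.1), and the highest of SoxN, scrt and repo lie between 101.0 and 106.1, just under the dashed threshold.

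Over all 10 windows the pool held 76 summits, of which 4 were optimal. A call held the pooled summit in all 3 replicates for 35 of them, in 2 for 29 and in 1 for 12. Their median pooled signal was 51.7, against 51.4 for the whole list. For 35 of the 76 the member's own TSS was the closest of any protein-coding gene. Per 100 kb of window there were 23.4 pooled summits (95% exact Poisson interval 18.4 to 29.3), against 17.7 over the chromosome arms. In replicates 1 and 2 the interval held the value of the arms, with 27.7 (22.3 to 34.0) against 22.4 and 25.5 (20.3 to 31.7) against 22.4, and in replicate 3 it lay above it, with 27.4 (22.0 to 33.7) against 18.4. For optimal summits it was 1.23 per 100 kb (0.335 to 3.15) against 1.895, and 0.344 without elav. Summits in coding exons made up 18 of the 76 (23.7%) and those in introns 20 (26.3%), against 16.2% and 43.1% of the pooled list. Intervals cover counting error only and take summits as independent, though neighbouring pooled summits can share a call. The arms are not matched to gene windows, and the list was chosen with results known. No enrichment is therefore read from these densities.

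Other neural genes carried sites about as often as all genes. Of 62 genes listed by role, 9 (14.5%) had an optimal summit within 1 kb of a TSS, and 29 (46.8%) had one in the gene body or 10 kb around. The glial list had 5 of 11 within 1 kb, against 14.7% of all genes. They were moody, a receptor of the blood-brain barrier (484.4), and Gs2, a glutamine synthetase (381.4). The others were the ETS factor pnt (125.1), the zinc finger repressor ttk (113.8) and the septate junction gene Gli (111.2). Several of these, such as pnt and ttk, also act outside glia. In the list of neuroblast identity, timing and division 2 of 15 did, brat (409.3) and numb (162.2), which both restrain self-renewal in the daughters of neuroblasts. In the list of neuronal identity genes 2 of 9 did, lola (219.6) and fru (181.7). No replicate 1 call held the lola summit. Like elav, brat and lola each had 2 promoter sites. Replicates 1, 2 and 3 gave 113.4, 163.7 and 207.1 at moody (mean 161.4 ± 46.9, SD, n = 3), 86.7, 148.0 and 177.3 at brat (mean 137.3 ± 46.2) and 93.9, 124.3 and 153.6 at Gs2 (mean 123.9 ± 29.9). At these 3 genes, as at elav, the raw signal was lowest in replicate 1. The median signal of the whole list was also lowest in replicate 1, 17.1 against 18.3 and 19.6 in replicates 2 and 3.

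No promoter site was called at paralogs of the members. With 14.7% of all genes having one, a count of 0 in lists this small is no result about paralogs. Those scored were the elav paralogs fne and Rbp9 (0 of 2), the SoxB genes Sox21a and Sox21b (0 of 2), and nerfin-2 and the scrt relative CG12605 (0 of 2). The count was also 0 for 9 proneural and neural bHLH genes, 3 columnar genes and 9 genes of neuronal function, among them Syt1, nSyb and brp. In the wider windows, 1 of 2 elav paralogs, 2 of 2 SoxB paralogs, 2 of 9 bHLH genes and 5 of 9 genes of neuronal function had an optimal summit, against 46.9% of all genes. So did 9 of 11 glial, 6 of 15 neuroblast and 4 of 9 neuronal identity genes. None did of the 3 columnar genes or of nerfin-2 and CG12605. The median span was 3386 bp for the members, 9732 bp for the other neural genes and 2166 bp for all genes, and its part in these counts was not tested.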

How the data were processed

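Binding of GFP-tagged eyg was measured by ChIP-seq in 3 replicates of 1 group. Chromatin was sonicated to 200 to 800 bp, per the labels. The authors called regions in each replicate and in the pool against a control and derived the optimal list by IDR, per the labels. For the aligner and the peak caller, name and version are not given in the sources used. The authors deposited a signal per region on an unstated scale, a −log10 q-value and a summit offset. The dm3 lists and the control were not used here. No read counts are given, so depth is unknown.

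The dm6 lists held 2537 optimal, 23721 pooled and 30000, 30000 and 24609 replicate regions. The 10 members and the other lists were chosen with earlier results of these data known. Genes, TSSs and location classes came from Ensembl release 115 (BDGP release 6.54), where all 72 symbols matched, and sequence from RefSeq's copy of that assembly. Coordinates are 1-based. A replicate's value at a pooled summit is the highest-signal call that contains it, so neighbouring pooled summits can share a call. Ranks and percentiles are within a list. The genes named follow a rule: all members, the nearest gene of optimal summits in their windows, eyg, and listed neural genes with a site. A few neighbours (mgr, pnut, mat, CG44869, 14-3-3epsilon, lncRNA:CR44276) and the summits below the rule's highest were named after their values were seen. Assignment was tested on simulated summits. Python 3.11.15, pandas 2.3.3 and SciPy 1.17.1 were used. Alternatives covered distance, flank, position, gene assignment, TSS set, stricter lists and leaving out each replicate.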

Additional observations from a re-analysis of the deposited data

How the results depend on the processing

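No paired analysis was possible because all 3 libraries form 1 group. Of 35 alternatives, 30 left the count within 1.5 times of its value or the density within its interval. The interval of the optimal density, 0.335 to 3.15 per 100 kb from 4 summits, is wide. It also held the 0.344 without elav, against 1.23 with it, so the tally says little about the density. The count of members with a site was 1 (elav) in every alternative run, including those without replicate 1, 2 or 3. The optimal list itself could not be remade without a replicate, so these asked for a place among the 2537 highest calls of the remaining replicates. Members with an optimal summit in the gene body and around numbered 2 with no flank (8.43% of all genes), 5 with a flank of 20000 bp, adding SoxN, nerfin-1 and repo (62.8% of all genes), and 1 by nearest protein-coding TSS, where pros was lost (13.9%). Members with a pooled promoter summit numbered 1 (elav) at a −log10 q of at least 2 (16.2% of all genes). Members called in every replicate numbered 1 (elav) among the 2537 highest calls of each (9.51%) and 7 at 2000 bp (55.8%), adding D, nerfin-1 and repo. Without replicate 1, 2 or 3 that count was 6, 5 and 4, against 48.1%, 46.9% and 50.4% of all genes. Because depth is unknown and the lists stop at a minimum signal, a gene without a call cannot be told from one bound more weakly.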
